A study of Mus musculus with 17 samples.

Results

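The unfolded protein response was followed through 33 genes, chosen by symbol as its sensors, transcription factors, feedback regulators, chaperones, disulfide isomerases, degradation factors and translocon subunits, out of 23284 gene symbols counted. RNA sequencing covered 17 mouse tumours that the labels call neuroendocrine tumours of the pituitary, 8 with engineered alleles of Rb1, Trp53 and Crebbp (Rb1/Trp53/Crebbp) and 9 with those of Rb1 and Trp53 (Rb1/Trp53). All 17 tumours therefore carry the Rb1 and Trp53 alleles, and the genotypes differ in Crebbp, which encodes an acetyltransferase and coactivator of transcription. The labels do not give the kind of allele, the cells in which recombination took place, age, sex or batch. They also do not say that each tumour came from a separate mouse, so the p-values measure only the spread between these samples.

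Proteins destined for secretion fold in the endoplasmic reticulum (ER), and a cell that makes a peptide hormone sends a large flow of precursor through it. When unfolded protein builds up, the membrane sensors IRE1 (Ern1), PERK (Eif2ak3) and ATF6 (Atf6) signal to the nucleus. IRE1 splices Xbp1 mRNA, ATF6 is cleaved to a transcription factor, and PERK phosphorylates eIF2-alpha, which slows translation in general while Atf4 mRNA is translated. XBP1 and ATF6 induce chaperones and factors of ER-associated degradation (ERAD), and ATF4 induces Ddit3, Trib3 and genes of amino acid supply. The counts are of whole genes, so Xbp1 splicing, cleavage of ATF6 and phosphorylation were not measured.

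Libraries were divided by their main hormone gene. Pomc, which encodes the pro-hormone of ACTH, had a higher count than Calca, the calcitonin gene, in 10 of them (Pomc-high, 4 Rb1/Trp53/Crebbp, T5 to T8, and 6 Rb1/Trp53, T2 and T5 to T9). In the other 7 Calca had the higher count (Calca-high, 4 Rb1/Trp53/Crebbp, T1 to T4, and 3 Rb1/Trp53, T1, T3 and T4). This division comes from the counts, not from the labels. Tbx19, a transcription factor that defines the Pomc lineage, had 305 to 418 CPM in Pomc-high libraries and at most 0.318 CPM in Calca-high ones, and Pax7, that of the intermediate lobe, 125 to 299 CPM and at most 0.185 CPM. The anterior lobe hormone genes Gh, Prl, Cga, Tshb, Lhb and Fshb together had at most 0.555 CPM in a Calca-high library. These markers of the Pomc lineage, the intermediate lobe and the anterior lobe of the labelled tissue were thus nearly absent from the Calca-high libraries. CPM values are counts relative to the total on genes, with TMM scaling over the 17 libraries. Totals on genes ran from 8328297 to 28140755 per library, and the lowest count of a member in a library was 71 (Derl3). In the Calca-high set they were 8328297 to 15490074 in Rb1/Trp53/Crebbp and 20361712 to 28140755 in Rb1/Trp53. Reads in no annotated gene made up 18.5% to 21.7% and 15.9% to 16.5% of the deposited counts there. Neither measure overlapped, so both move with the genotype in that set, and their part in the differences was not tested. Whole-gene Crebbp stood at 42.8 to 62.2 CPM in Rb1/Trp53/Crebbp and 39.7 to 116 CPM in Rb1/Trp53 libraries of the Pomc-high set, and at 67.6 to 93.6 and 48.5 to 55.9 CPM in those of the Calca-high set, which does not check the labels because the counts cannot show a deleted exon. In bulk RNA, fewer cells of a type and less RNA per cell cannot be told apart.

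The promoters of the members were searched for the DNA elements of the response, on both strands of the window from 250 bases before to 50 bases after the start site (RefSeq, GRCm38.p6, a build other than the mm9 of the counts). The table matched 29 of the 33 members, all but Hyou1, Atf6, Manf and Derl1. The ER stress response element ERSE, read as CCAAT and CCACG with 9 bases between them, occurred in 9 of the 29 (31.0%), against 39 of 32851 windows of all genes (0.119%). ERSE-II, read as ATTGG and CCACG with 1 base between them, occurred in Herpud1 and Dnajb11 (6.9%), against 0.0365% of all windows. The element bound by ATF4 with C/EBP proteins, CARE, read as TGATGNAAN, occurred in Atf3, Trib3 and Herpud1 (10.3%), against 3.95% of all windows. The XBP1 element UPRE, read as TGACGTGG, was matched in 0 of the 29 and in 0.676% of all windows. The cyclic AMP element CRE, read as TGACGTCA and bound by CREB, the partner that gave Crebbp its name, was matched in 1 member, Ppp1r15a, and in 1.79% of all windows. A match describes the letters and is not evidence of binding.

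A choice of the sites is shown 5′ to 3′ on the strand of the gene, with the motif in capitals, so that the elements of the chaperone and ERAD genes can be set beside those of the ATF4 branch. ERSE is in capitals in the first 7 lines, ERSE-II in the line of Herpud1, CARE in those of Trib3 and Atf3 and CRE in that of Ppp1r15a. Sites that begin with CGTGG, and both CARE sites, are the motif on the other strand.
Hspa5, chr2:34772015-34772053, + strand: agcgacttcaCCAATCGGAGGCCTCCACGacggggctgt
Derl3, chr10:75893232-75893270, + strand: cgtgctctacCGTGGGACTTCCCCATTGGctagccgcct
Pdia6, chr12:17266481-17266519, + strand: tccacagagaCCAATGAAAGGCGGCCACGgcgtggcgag
Creld2, chr15:88819510-88819548, + strand: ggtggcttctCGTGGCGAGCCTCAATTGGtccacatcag
Syvn1, chr19:6046522-6046560, + strand: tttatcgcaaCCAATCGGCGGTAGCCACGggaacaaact
Calr, chr8:84847065-84847103, - strand: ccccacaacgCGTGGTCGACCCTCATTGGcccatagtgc
Dnajc3, chr14:118937817-118937855, + strand: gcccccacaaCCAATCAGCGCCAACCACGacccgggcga
Herpud1, chr8:94386367-94386397, + strand: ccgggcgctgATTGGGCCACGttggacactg
Trib3, chr2:152344029-152344057, - strand: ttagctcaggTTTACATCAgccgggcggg
Atf3, chr1:191183426-191183454, - strand: ccttctcgcaCTTGCATCAccaagtccgc
Ppp1r15a, chr7:45526263-45526290, - strand: gcctctccggTGACGTCAgcacagcgcc
The 250 bases before the start site of Hspa5, the most studied target of the response, and of Derl3, the member with the largest genotype difference in the Calca-high set, carry 1 exact match to ERSE each. Near matches were not searched for.
Hspa5, chr2:34771840-34772089, + strand: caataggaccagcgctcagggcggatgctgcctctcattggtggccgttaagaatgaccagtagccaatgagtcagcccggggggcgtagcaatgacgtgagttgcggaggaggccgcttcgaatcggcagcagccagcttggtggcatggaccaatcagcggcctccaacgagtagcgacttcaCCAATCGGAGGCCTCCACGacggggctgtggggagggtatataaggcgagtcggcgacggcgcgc
Derl3, chr10:75893148-75893397, + strand: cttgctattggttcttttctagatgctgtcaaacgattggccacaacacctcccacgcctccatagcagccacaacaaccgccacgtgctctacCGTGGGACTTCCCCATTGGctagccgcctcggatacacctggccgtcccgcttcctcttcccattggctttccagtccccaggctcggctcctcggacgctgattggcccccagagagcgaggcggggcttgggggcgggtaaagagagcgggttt

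**Figure D1:**
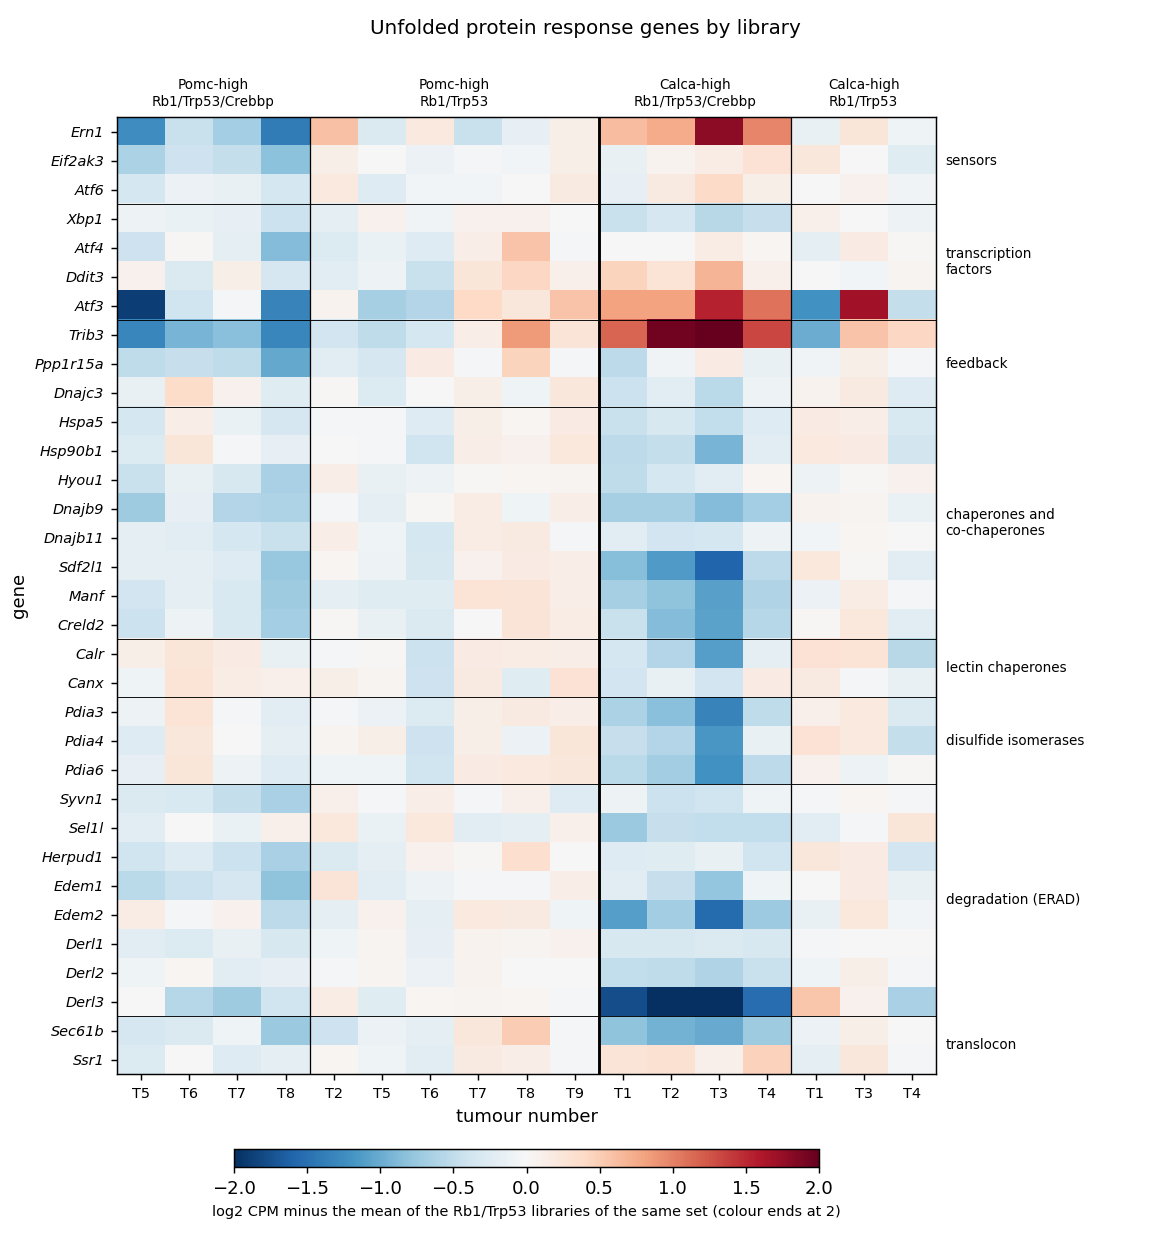
Each row is 1 of the 33 genes, ordered by role, and each column 1 of the 17 libraries, with the tumour number below and the hormone set and genotype above. Colour is log2 CPM minus the mean of the Rb1/Trp53 libraries of the same set (red higher, blue lower, colour ends at 2): Ern1 and Trib3 are blue in the Pomc-high and red in the Calca-high Rb1/Trp53/Crebbp libraries, while Derl3 is blue in all 4 Calca-high ones.

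In the Pomc-high tumours the genes called lower in Rb1/Trp53/Crebbp were mostly signalling and ERAD genes. The estimates did not set ERAD apart from the chaperones. The median log2 difference was -0.34 in the 8 chaperones and co-chaperones and -0.30 in the 8 ERAD genes, with all 8 negative in each. Hspa5, Hsp90b1, the lectin chaperones and the disulfide isomerases had log2 differences between -0.14 and 0.11, and the ERAD genes Sel1l and Edem2 had -0.05. The IRE1 gene Ern1, the PERK gene Eif2ak3, the feedback genes Trib3 and Ppp1r15a, the co-chaperone gene Dnajb9 and the ERAD genes Syvn1 and Edem1 passed an adjusted p of 0.05, 7 lower and 0 higher of 33 (edgeR quasi-likelihood test, Benjamini-Hochberg over 14010 genes). Over all genes tested, 5.26% were lower and 3.15% higher (8.42% together). The log2 fold change, Rb1/Trp53/Crebbp over Rb1/Trp53, was negative for 29 of the 33 members and for 47.9% of all genes tested, with a median of -0.29 in the members and 0.01 over all. The 2 groups did not overlap for 5 members, all lower, against 5.87% of all genes lower and 3.9% higher in this way.

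Of the sensors, Ern1 had 27.8, 48.1, 40.7 and 24.97 CPM in the Rb1/Trp53/Crebbp libraries T5 to T8, against 47.9 to 98.1 CPM (median 64.8) in the 6 Rb1/Trp53 libraries. The groups touched at T6, which lay just above the lowest Rb1/Trp53 library, and the log2 fold change was -0.91 ± 0.23 SE (edgeR adjusted p = 0.0303). Eif2ak3 had 52.7, 61.6, 59.1 and 46.6 CPM in Rb1/Trp53/Crebbp, against 75.3 to 88.8 CPM (median 80.8) in Rb1/Trp53. All 4 lay below all 6, and PERK mRNA fell by 0.56 ± 0.09 on the log2 scale (edgeR adjusted p = 0.00398). Atf6, at 67.8, 79.7, 78.3 and 67.6 CPM in Rb1/Trp53/Crebbp and 72.2 to 99.1 CPM (median 85.01) in Rb1/Trp53, overlapped between the genotypes (-0.23 ± 0.10, adjusted p = 0.175). Without 1 library at a time, Eif2ak3 passed in all 10 fits and Ern1 in 5 of 10, with the adjusted p of Ern1 at most 0.0864.

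Among the transcription factors 0 of 4 passed. Xbp1 stood at 277, 270, 265 and 221 CPM in Rb1/Trp53/Crebbp and 260 to 317 CPM (median 307) in Rb1/Trp53 (-0.19 ± 0.10). Atf4 stood at 195, 263, 227 and 141 CPM against 213 to 381 CPM (median 245), with a log2 fold change of -0.33 ± 0.20. Ddit3, which encodes the stress-linked factor CHOP, differed by -0.10 ± 0.16, with 56.4, 43.5, 57.9 and 42.0 CPM in Rb1/Trp53/Crebbp and 39.1 to 71.1 CPM (median 53.2) in Rb1/Trp53. These 3 genes overlapped between the genotypes. Atf3, a stress-induced factor, had the largest SE of the 33 (-0.78 ± 0.37, adjusted p = 0.22, edgeR).

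The feedback genes act on the PERK arm. Trib3, a pseudokinase that binds ATF4, had 16.3, 21.2, 22.6 and 16.4 CPM in Rb1/Trp53/Crebbp, against 28.4 to 73.2 CPM (median 38.0) in Rb1/Trp53. No library of one genotype entered the range of the other, and the log2 fold change of -1.14 ± 0.27 was the largest of the 33 (edgeR adjusted p = 0.0233). Ppp1r15a (GADD34), the phosphatase subunit that restores translation, had 49.5, 51.2, 49.3 and 34.6 CPM in Rb1/Trp53/Crebbp and 56.1 to 96.2 CPM (median 69.1) in Rb1/Trp53. The genotypes did not overlap there either (-0.61 ± 0.16, edgeR adjusted p = 0.0302). Dnajc3 (p58IPK), a co-chaperone that also inhibits PERK, differed by 0.05 ± 0.13. Leaving out single libraries ended the Trib3 call in 2 of 10 fits (without Rb1/Trp53/Crebbp T5 or T8) and the Ppp1r15a call in 6 of 10.

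Among the 8 chaperones and co-chaperones, Dnajb9 (ERdj4), which binds IRE1 and feeds clients to degradation, passed the test. It had 87.0, 127, 95.2 and 93.3 CPM in Rb1/Trp53/Crebbp and 126 to 158 CPM (median 142) in Rb1/Trp53, so that T6 alone reached the Rb1/Trp53 range (-0.49 ± 0.11, edgeR adjusted p = 0.0195). Hspa5 (BiP), the main ER chaperone, stood at 1242, 1732, 1434 and 1255 CPM in Rb1/Trp53/Crebbp, against 1323 to 1773 CPM (median 1586) in Rb1/Trp53. These ranges overlapped and the log2 fold change was -0.14 ± 0.13. The Dnajb9 call was lost without T5 or T7 of Rb1/Trp53/Crebbp (adjusted p up to 0.0632). Hyou1, the BiP exchange factor, missed the threshold at -0.36 ± 0.11 (edgeR adjusted p = 0.0567). Dnajb11 (ERdj3), a BiP co-chaperone, had 85.5, 84.6, 77.2 and 72.5 CPM in Rb1/Trp53/Crebbp and 77.1 to 112 CPM in Rb1/Trp53, and did not pass (-0.29 ± 0.11, edgeR adjusted p = 0.117). Neither did Sdf2l1 (-0.32 ± 0.13), Manf (-0.38 ± 0.14) and Creld2 (-0.35 ± 0.13). Hsp90b1 (GRP94) differed by -0.04 ± 0.14, the lectin chaperones Calr and Canx by 0.11 ± 0.13 and 0.11 ± 0.14, and the disulfide isomerases Pdia3, Pdia4 and Pdia6 by 0.01 ± 0.13, -0.04 ± 0.13 and -0.06 ± 0.14.

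The 8 ERAD genes all had negative log2 fold changes and 2 passed. Syvn1 (HRD1), the ubiquitin ligase of the pathway, had 97.3, 96.1, 86.0 and 76.4 CPM in Rb1/Trp53/Crebbp and 100.2 to 130 CPM (median 122) in Rb1/Trp53, without overlap (-0.41 ± 0.10, edgeR adjusted p = 0.0232). That call was lost without T7 or T8 of Rb1/Trp53/Crebbp or T8 of Rb1/Trp53 (adjusted p up to 0.0840). Edem1, which marks misfolded glycoproteins for disposal, had 30.8, 33.1, 35.3 and 25.6 CPM in Rb1/Trp53/Crebbp and 38.7 to 53.4 CPM (median 43.4) in Rb1/Trp53. It did not overlap between the genotypes either, fell by 0.51 ± 0.12 on the log2 scale (edgeR adjusted p = 0.0181) and passed in all 10 fits without a single library. Herpud1, which assembles the ligase complex, just missed the threshold (-0.42 ± 0.12, adjusted p = 0.0539), and Sel1l, the partner of Syvn1, differed by -0.05 ± 0.11. Edem2 (-0.05 ± 0.14), Derl1 (-0.22 ± 0.08), Derl2 (-0.09 ± 0.08) and Derl3 (-0.38 ± 0.14) did not pass in this set. The translocon genes Sec61b and Ssr1 differed by -0.35 ± 0.18 and -0.17 ± 0.10.

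Other measures moved with the genotype in this set. The summed level of 8 endothelial markers was 20.8 to 48.8 CPM in Rb1/Trp53/Crebbp and 50.8 to 75.2 CPM in Rb1/Trp53, with 2 of 8 genes (Kdr and Ptprb) lower and none of the 8 at 0. The sum of 9 macrophage markers was 27.6 to 186 CPM and 107 to 330 CPM, with 1 of 9 lower. Anterior lobe hormone genes other than Pomc summed to 48.2 to 2343 CPM in Rb1/Trp53/Crebbp and 11.3 to 14285 CPM in Rb1/Trp53. All 5 tested had negative log2 fold changes (median -2.81) and 0 passed. Of Pomc, Tbx19, Pax7 and Pcsk2, the genes listed for Pomc cells, 3 were negative and 1 was called lower. Pcsk2 averaged 4135 CPM in Rb1/Trp53/Crebbp and 7247 CPM in Rb1/Trp53. In the Calca-high Rb1/Trp53 libraries Pcsk2 averaged 7054 CPM, so it is not particular to Pomc cells here. Tbx19 averaged 367 CPM in the Pomc-high Rb1/Trp53/Crebbp and 353 CPM in the Pomc-high Rb1/Trp53 libraries. With the endothelial sum as a covariate 7 members passed, 3 of them among the 7 above. The share of all genes passing that fit is not given, so the count is not read as particular to the members. The endothelial sum does not overlap between the genotypes, so it and the genotype cannot be told apart in these libraries either. The part of macrophage cells and of the other lists in the member counts was not tested. T8 of Rb1/Trp53/Crebbp was the lowest of its group for 22 of the 33 members and for 27.0% of all genes, and T6 was the highest for 21 members and 27.3% of all genes. Without T8, without T7 and without T5 of Rb1/Trp53/Crebbp, 3, 3 and 4 members passed.

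**Figure D2:**
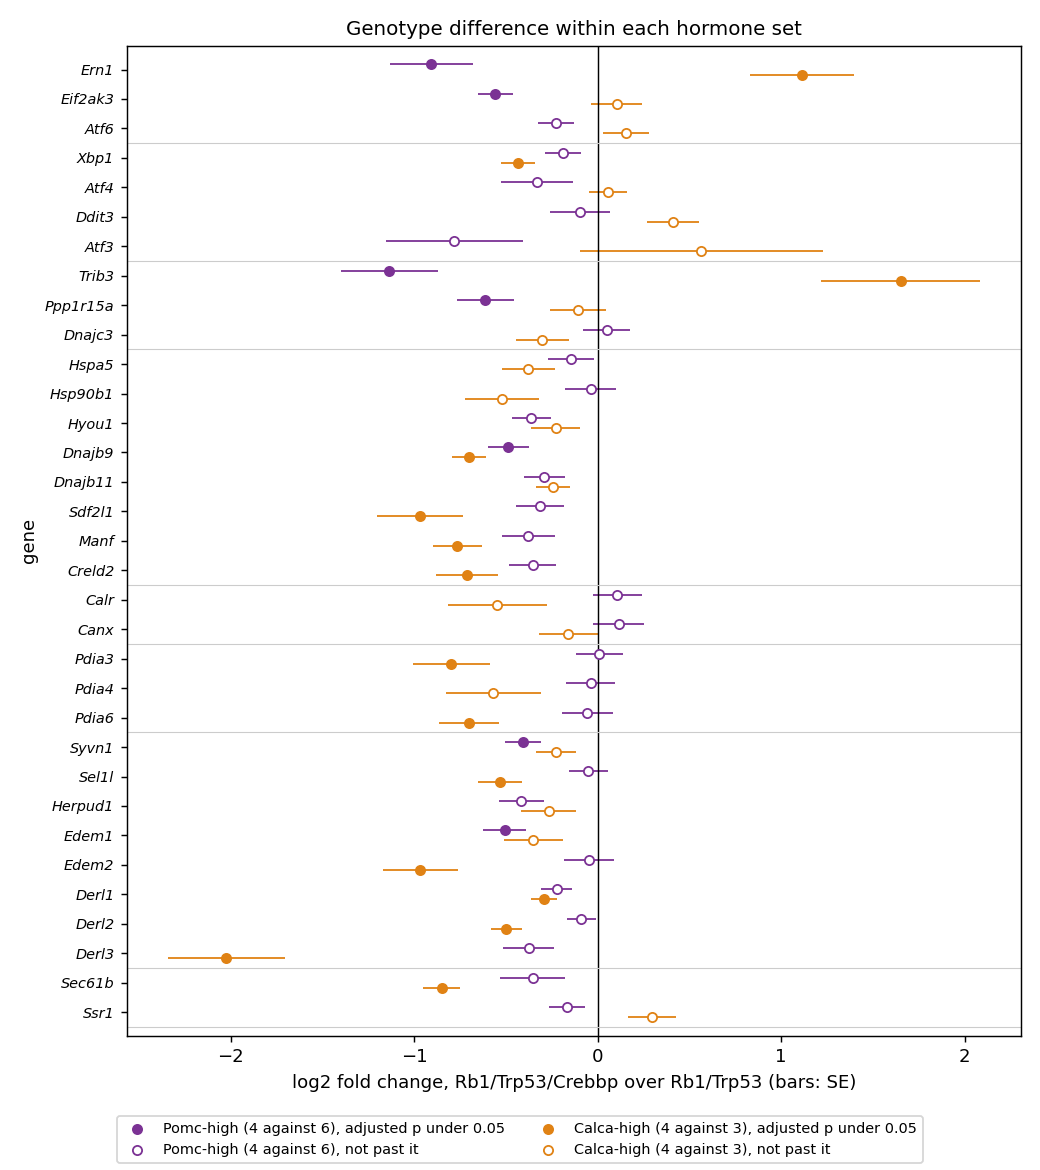
Points are the log2 fold change of Rb1/Trp53/Crebbp over Rb1/Trp53 for each of the 33 genes within the Pomc-high (4 against 6 libraries) and Calca-high (4 against 3) sets, with bars of 1 SE and filled points for an edgeR adjusted p under 0.05. Ern1 and Trib3 are filled on opposite sides of 0, and Derl3 lies farthest to the left at -2.02 in the Calca-high set.

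In the Calca-high tumours 4 of 8 chaperones and co-chaperones, 2 of 3 disulfide isomerases, 5 of 8 ERAD genes, Xbp1 and Sec61b were lower in Rb1/Trp53/Crebbp, and Ern1 and Trib3 were higher. Of the 33 members 13 fell and 2 rose (edgeR quasi-likelihood test, adjusted over 14797 genes), where 17.1% of all genes tested were lower and 19.1% higher (36.2% together). The log2 fold change was negative for 25 of 33 members and for 51.5% of all genes, with medians of -0.35 and -0.02. The genotypes did not overlap, with Rb1/Trp53/Crebbp lower, for 15 members against 22.6% of all genes, and with Rb1/Trp53/Crebbp higher for 3 members against 21.8%.

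Ern1 stood at 46.0, 50.3, 103 and 59.1 CPM in the Rb1/Trp53/Crebbp libraries T1 to T4, against 27.1, 35.4 and 28.3 CPM in Rb1/Trp53 T1, T3 and T4. All 4 lay above all 3, with T3 far above the rest, and IRE1 mRNA rose by 1.11 ± 0.28 on the log2 scale (edgeR adjusted p = 0.0200). Eif2ak3, which fell in the Pomc-high set, stood at 51.6, 60.3, 63.7 and 69.8 CPM in Rb1/Trp53/Crebbp and 67.2, 57.8 and 48.6 CPM in Rb1/Trp53. The genotypes overlapped (0.10 ± 0.14). Atf6 overlapped as well, at 77.8, 98.6, 113 and 95.2 CPM in Rb1/Trp53/Crebbp and 86.8, 92.9 and 82.8 CPM in Rb1/Trp53 (0.16 ± 0.12).

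Xbp1 had 268, 288, 247 and 264 CPM in Rb1/Trp53/Crebbp, against 393, 363 and 340 CPM in Rb1/Trp53. The ranges were apart, and total Xbp1 mRNA fell by 0.43 ± 0.09 on the log2 scale (edgeR adjusted p = 0.00984). Atf4 mRNA was nearly the same in both, with 171, 173, 192 and 177 CPM in Rb1/Trp53/Crebbp and 151, 193 and 175 CPM in Rb1/Trp53 (0.06 ± 0.10). Ddit3 did not overlap, with 36.1, 31.8, 42.4 and 28.3 CPM in Rb1/Trp53/Crebbp and 26.5, 25.4 and 27.4 CPM in Rb1/Trp53, but missed the threshold (0.41 ± 0.14, edgeR adjusted p = 0.0517). Atf3 ranged from 8.52 to 63.1 CPM over the 3 Rb1/Trp53 libraries and gave no call (0.56 ± 0.66).

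Trib3 had 17.9, 30.5, 41.1 and 20.01 CPM in Rb1/Trp53/Crebbp, against 4.01, 11.8 and 10.7 CPM in Rb1/Trp53. Every Rb1/Trp53/Crebbp library exceeded every Rb1/Trp53 library, and the log2 fold change was 1.65 ± 0.43 (edgeR adjusted p = 0.0221). Without Rb1/Trp53/Crebbp T3, the highest library for both Trib3 and Ern1, Trib3 had an adjusted p of 0.0522, and the Ern1 call was lost without T1 or without T4 of Rb1/Trp53 (adjusted p up to 0.0640). Ppp1r15a (-0.11 ± 0.15) and Dnajc3 (-0.30 ± 0.15) did not pass.

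Of the 8 chaperones and co-chaperones 4 fell. Dnajb9 had 67.8, 67.8, 58.9 and 67.4 CPM in Rb1/Trp53/Crebbp and 113, 111 and 98.2 CPM in Rb1/Trp53. The groups were wide apart (-0.70 ± 0.09, edgeR adjusted p = 0.00188), and Dnajb9 was the 1 member lower in both sets, which is 14.3% of the 7 lower calls in the Pomc-high and 7.69% of the 13 in the Calca-high set. Sdf2l1, a BiP cofactor, stood at 72.9, 60.4, 43.9 and 92.0 CPM in Rb1/Trp53/Crebbp, against 153, 134 and 113 CPM in Rb1/Trp53 (-0.97 ± 0.23, edgeR adjusted p = 0.0158). Manf, a secreted ER stress protein, had 307, 279, 231 and 321 CPM in Rb1/Trp53/Crebbp and 449, 538 and 481 CPM in Rb1/Trp53 (-0.76 ± 0.13, edgeR adjusted p = 0.00431). Creld2, another ER stress-induced protein, had 90.2, 67.9, 58.8 and 83.4 CPM in Rb1/Trp53/Crebbp and 125, 142 and 105 CPM in Rb1/Trp53 (-0.71 ± 0.17, edgeR adjusted p = 0.0138). None of these 4 genes overlapped between the genotypes. The Creld2 call was lost without T3 of Rb1/Trp53 (adjusted p = 0.0537) and the Sdf2l1 call without T1 of Rb1/Trp53 (adjusted p = 0.0503). Dnajb11 did not overlap either, at 93.5, 84.0, 85.6 and 102 CPM in Rb1/Trp53/Crebbp and 106, 113 and 111 CPM in Rb1/Trp53, but missed the threshold (-0.24 ± 0.09, edgeR adjusted p = 0.0666).

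Hspa5 itself was not called. It stood at 1200, 1303, 1166 and 1363 CPM in Rb1/Trp53/Crebbp, against 1843, 1794 and 1324 CPM in Rb1/Trp53. T4 of Rb1/Trp53 lay inside the Rb1/Trp53/Crebbp range, and the log2 fold change was -0.38 ± 0.14 (edgeR adjusted p = 0.0734). Hsp90b1 (-0.52 ± 0.20), Calr (-0.55 ± 0.27) and Pdia4 (-0.57 ± 0.26) had larger estimates with larger errors and did not pass. Hyou1 (-0.23 ± 0.13) and Canx (-0.16 ± 0.16) did not pass either. Of the disulfide isomerases, Pdia3, which works with the lectin chaperones, had 1149, 995, 705 and 1250 CPM in Rb1/Trp53/Crebbp and 1915, 2034 and 1460 CPM in Rb1/Trp53 (-0.80 ± 0.21, edgeR adjusted p = 0.0208). Pdia6, which also restrains IRE1, had 376, 336, 236 and 378 CPM in Rb1/Trp53/Crebbp and 579, 508 and 552 CPM in Rb1/Trp53 (-0.70 ± 0.17, edgeR adjusted p = 0.0138). Both were without overlap, and T3 of Rb1/Trp53/Crebbp was the lowest library for each. The Pdia3 call was lost without T1 or T3 of Rb1/Trp53 (adjusted p up to 0.0736).

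ERAD held the largest difference of the 33. Derl3, a derlin of secretory cells and a channel component of the pathway, had 7.52, 5.48, 4.62 and 8.97 CPM in Rb1/Trp53/Crebbp, against 37.7, 27.5 and 16.6 CPM in Rb1/Trp53. Its log2 fold change was -2.02 ± 0.32 (edgeR adjusted p = 0.00333), and the call held in all 7 fits without a single library. The related Derl2 had 51.6, 51.1, 47.9 and 53.7 CPM in Rb1/Trp53/Crebbp and 68.3, 79.0 and 71.7 CPM in Rb1/Trp53 (-0.50 ± 0.09, edgeR adjusted p = 0.00418). Derl1 was tight within each genotype, at 150, 148, 152 and 149 CPM in Rb1/Trp53/Crebbp and 184, 187 and 186 CPM in Rb1/Trp53 (-0.29 ± 0.07, edgeR adjusted p = 0.0132). All 3 derlins were lower in Rb1/Trp53/Crebbp without overlap.

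Edem2, which starts mannose trimming of misfolded glycoproteins, had 102, 135, 75.1 and 131 CPM in Rb1/Trp53/Crebbp and 196, 253 and 209 CPM in Rb1/Trp53 (-0.97 ± 0.20, edgeR adjusted p = 0.00915). Sel1l had 108, 131, 129 and 129 CPM in Rb1/Trp53/Crebbp and 156, 176 and 215 CPM in Rb1/Trp53 (-0.53 ± 0.12, edgeR adjusted p = 0.0114). Sec61b, a subunit of the translocon through which precursors enter the ER, had 104, 94.2, 89.7 and 110 CPM in Rb1/Trp53/Crebbp and 168, 196 and 181 CPM in Rb1/Trp53 (-0.85 ± 0.10, edgeR adjusted p = 0.00145). None of the 3 overlapped. Ssr1, a subunit of the TRAP complex beside the translocon, went the other way without a call, at 435, 450, 390 and 499 CPM in Rb1/Trp53/Crebbp and 318, 425 and 356 CPM in Rb1/Trp53 (0.29 ± 0.13). Syvn1 (-0.23 ± 0.11), Herpud1 (-0.27 ± 0.15) and Edem1 (-0.35 ± 0.16) did not pass here.

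Other measures moved with the genotype in the Calca-high set too. All 7 thyroid follicular markers, Tg among them, were lower in Rb1/Trp53/Crebbp, with a summed level of 941 to 1315 CPM against 2152 to 17072 CPM in Rb1/Trp53. Endothelial markers summed to 36.9 to 52.4 CPM in Rb1/Trp53/Crebbp and 67.6 to 83.7 CPM in Rb1/Trp53, with 5 of 8 lower. Markers of plasma cells, which are rich in chaperone and ERAD mRNA, summed to 59.5 to 102 CPM in Rb1/Trp53/Crebbp and 21.9 to 54.2 CPM in Rb1/Trp53. Most of that sum was Sdc1, the 1 of 4 tested that was higher (53.8 to 94.2 CPM in Rb1/Trp53/Crebbp and 13.9 to 47.2 CPM in Rb1/Trp53), which epithelial cells also express. The other 6 averaged at most 3.80 CPM in either genotype, and 5 of them had the smaller mean in Rb1/Trp53/Crebbp, such as Igj at 0.302 CPM in Rb1/Trp53/Crebbp and 1.15 CPM in Rb1/Trp53. Macrophage markers summed to 81.4 to 245 CPM in Rb1/Trp53/Crebbp and 231 to 274 CPM in Rb1/Trp53, with 3 of 9 lower, and fibroblast markers to 186 to 629 and 556 to 874 CPM, with 0 of 7 past the threshold. Calca, Nkx2-1, Ret and Chga, the markers listed for calcitonin-producing cells, were all lower in Rb1/Trp53/Crebbp, with a median log2 fold change of -1.09. The immediate-early genes were higher in 4 of 8 and lower in 1 of 8, with sums of 675 to 899 CPM in Rb1/Trp53/Crebbp and 370 to 645 CPM in Rb1/Trp53, and no marker of these 7 lists was at 0 in every library of a group. With the thyroid follicular sum as a covariate 2 members passed (Sel1l and Sec61b), and with the endothelial sum 0 passed. No share of all genes is given for these fits, so the smaller counts are not read as particular to the members. Neither sum overlaps between the genotypes, so those measures and the genotype cannot be told apart in these 7 libraries. The part of the other lists in the member counts was not tested.

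**Figure D3:**
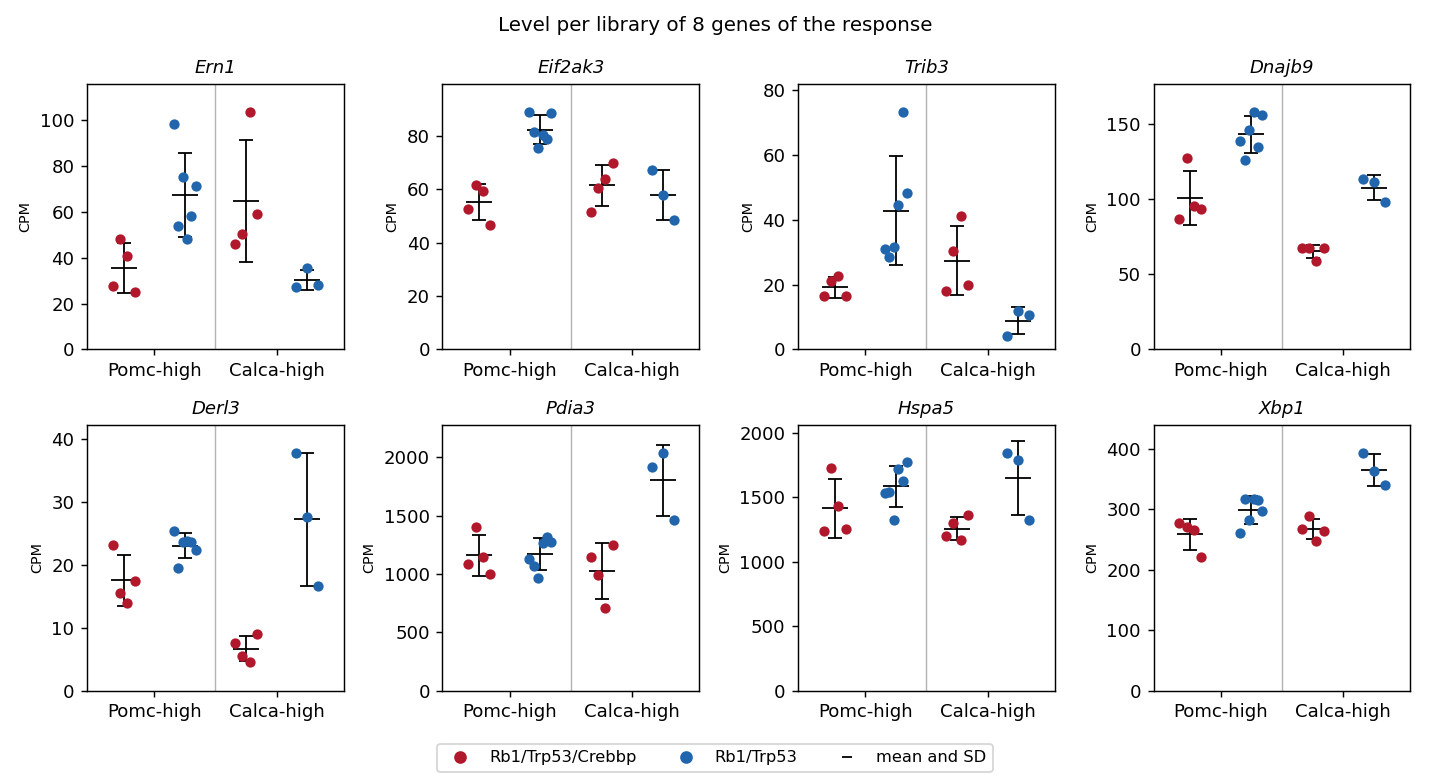
Each panel plots CPM (linear axis from 0) per library for 1 gene, with the Pomc-high set on the left and the Calca-high set on the right, red points for Rb1/Trp53/Crebbp, blue points for Rb1/Trp53, and a bar for the mean with 1 SD. Ern1 and Trib3 have their low group in Rb1/Trp53/Crebbp on the left and in Rb1/Trp53 on the right, Dnajb9 is lower in Rb1/Trp53/Crebbp on both sides, and Hspa5 overlaps in both.

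Whether the genotype difference itself differed between the sets was tested as an interaction over all 17 libraries (genotype difference in Pomc-high minus that in Calca-high). It passed for 10 of 33 members, 6 positive and 4 negative, against 24.7% of 14338 genes (10.9% positive, 13.9% negative). The negative ones were Trib3 (-2.79 ± 0.51, edgeR adjusted p = 0.00184), Ern1 (-2.03 ± 0.39, adjusted p = 0.00248), Eif2ak3 (-0.67 ± 0.16, adjusted p = 0.00862) and Ssr1 (-0.46 ± 0.16, adjusted p = 0.0415). Ern1 and Trib3 thus moved in opposite directions in the sets, lower in the Pomc-high and higher in the Calca-high Rb1/Trp53/Crebbp tumours, each past the threshold on both sides and in the difference. The positive ones were the folding and ERAD genes Derl3 (1.64 ± 0.32, edgeR adjusted p = 0.00242), Edem2 (0.92 ± 0.25, adjusted p = 0.0135), Pdia3 (0.80 ± 0.23, adjusted p = 0.0209), Pdia6 (0.64 ± 0.22, adjusted p = 0.0441), Sel1l (0.48 ± 0.17, adjusted p = 0.0499) and Derl2 (0.41 ± 0.11, adjusted p = 0.0124). For these 6 the Calca-high difference was the more negative. Ern1, Eif2ak3, Trib3, Edem2, Derl2 and Derl3 passed in all 17 fits without a single library, whereas Pdia6 did so in 6, Sel1l in 7, Ssr1 in 4 and Pdia3 in 16 (lost without Rb1/Trp53 T3).

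With the set as a term and 1 genotype difference for all 17 libraries, 15 members were lower and 0 higher in Rb1/Trp53/Crebbp, against 9.74% lower and 8.22% higher of 14338 genes (18% together, edgeR). The median was -0.29 in the members and -0.01 over all genes. By role these were 6 of 8 chaperones and co-chaperones, 6 of 8 ERAD genes, Xbp1, Ppp1r15a and Sec61b, with Dnajb9 at the smallest adjusted p (-0.60 ± 0.08, adjusted p = 0.000215). Dnajb11 passed here (-0.29 ± 0.08, adjusted p = 0.0148). The Ppp1r15a call was lost in 11 of 17 fits without a single library (adjusted p up to 0.0743). The sensors and Trib3 did not pass in this fit, in which Ern1 had -0.09 ± 0.33 and Trib3 -0.03 ± 0.47. This estimate rests on the same libraries as those within the sets and adds no independent samples.

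The hormone gene took up a smaller part of the library in Rb1/Trp53/Crebbp. Pomc made up 17.9% ± 5.15 of the gene counts in the Pomc-high Rb1/Trp53/Crebbp libraries (SD, n = 4), and 23.7% ± 2.58 in the Rb1/Trp53 ones (SD, n = 6). The mean log2 share differed by -0.45 (exact two-sided permutation p = 0.0476), and by -0.21 without T8 of Rb1/Trp53/Crebbp, which had the lowest share at 10.6%. Calca made up 6.25% ± 1.63 in the Calca-high Rb1/Trp53/Crebbp libraries (SD, n = 4) and 14.5% ± 2.44 in the Rb1/Trp53 ones (SD, n = 3). There the shares did not overlap, at 4.03% to 7.59% and 11.8% to 16.5%, with a log2 difference of -1.24 (exact two-sided permutation p = 0.0571, the smallest 4 against 3 libraries can give).

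With genotype in the fit, most members had a positive slope on the Pomc share. This log2 change in level per doubling of the share was positive for 31 of 33 members and 49.4% of all genes, with medians of 0.27 and -0.01. It passed for 1 member, Edem2 (0.66 ± 0.16, edgeR adjusted p = 0.0342), against 3.75% of 14010 genes (0.535% positive, 3.22% negative), and 10 members had an unadjusted p under 0.05. The next smallest adjusted p-values belonged to Ppp1r15a (0.68 ± 0.20, adjusted p = 0.0757), Sdf2l1 (0.57 ± 0.17, adjusted p = 0.0778), Sec61b (0.75 ± 0.22, adjusted p = 0.0778) and Atf4 (0.84 ± 0.25, adjusted p = 0.0827), none of which passed. Slopes on the Pomc share were negative for all 8 endothelial (median -0.93), 9 macrophage (-1.72) and 6 fibroblast markers tested (-1.90). They were positive for all 5 anterior lobe hormone genes tested other than Pomc (median 6.01). Of these markers 1 of 9 macrophage genes passed the threshold, and 0 of 8 endothelial, 0 of 6 fibroblast and 0 of 5 anterior lobe hormone genes did. The slopes thus shared a sign within each list, mostly without a call. The part of other cells in the members' slopes was not tested. The Edem2 call was lost without T5, T7 or T8 of Rb1/Trp53/Crebbp or T8 of Rb1/Trp53, and without T8 of Rb1/Trp53/Crebbp 22 of the 33 slopes kept their sign. Put the other way round, the genotype difference at an equal Pomc share passed for 1 member, Eif2ak3 (-0.47 ± 0.11, edgeR adjusted p = 0.0335). The share of all genes passing that fit is not given, so this count is not read as particular to the members. The other 6 members called in this set had -0.84 ± 0.29 (Ern1), -0.76 ± 0.31 (Trib3), -0.31 ± 0.14 (Ppp1r15a), -0.46 ± 0.15 (Dnajb9), -0.31 ± 0.12 (Syvn1) and -0.39 ± 0.14 (Edem1) there.

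In the Calca-high libraries the slope per doubling of the Calca share passed for 0 of 33 members and 0 of 14797 genes, which is 0.0% (edgeR), and 7 members and 660 genes had an unadjusted p under 0.05. DESeq2 and limma-voom also called 0 members. The slope was positive for 24 of 33 members and 50.3% of all genes, with medians of 0.22 and 0.00. Edem2 (0.68 ± 0.27), Sdf2l1 (0.68 ± 0.33) and Pdia3 (0.67 ± 0.28) had positive slopes and Ern1 a negative one (-0.79 ± 0.34). With Calca share as a covariate 0 members passed for genotype, and the share of all genes passing that fit is not given. Since the shares of the genotypes do not overlap, genotype and Calca share cannot be told apart in these libraries.

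**Figure D4:**
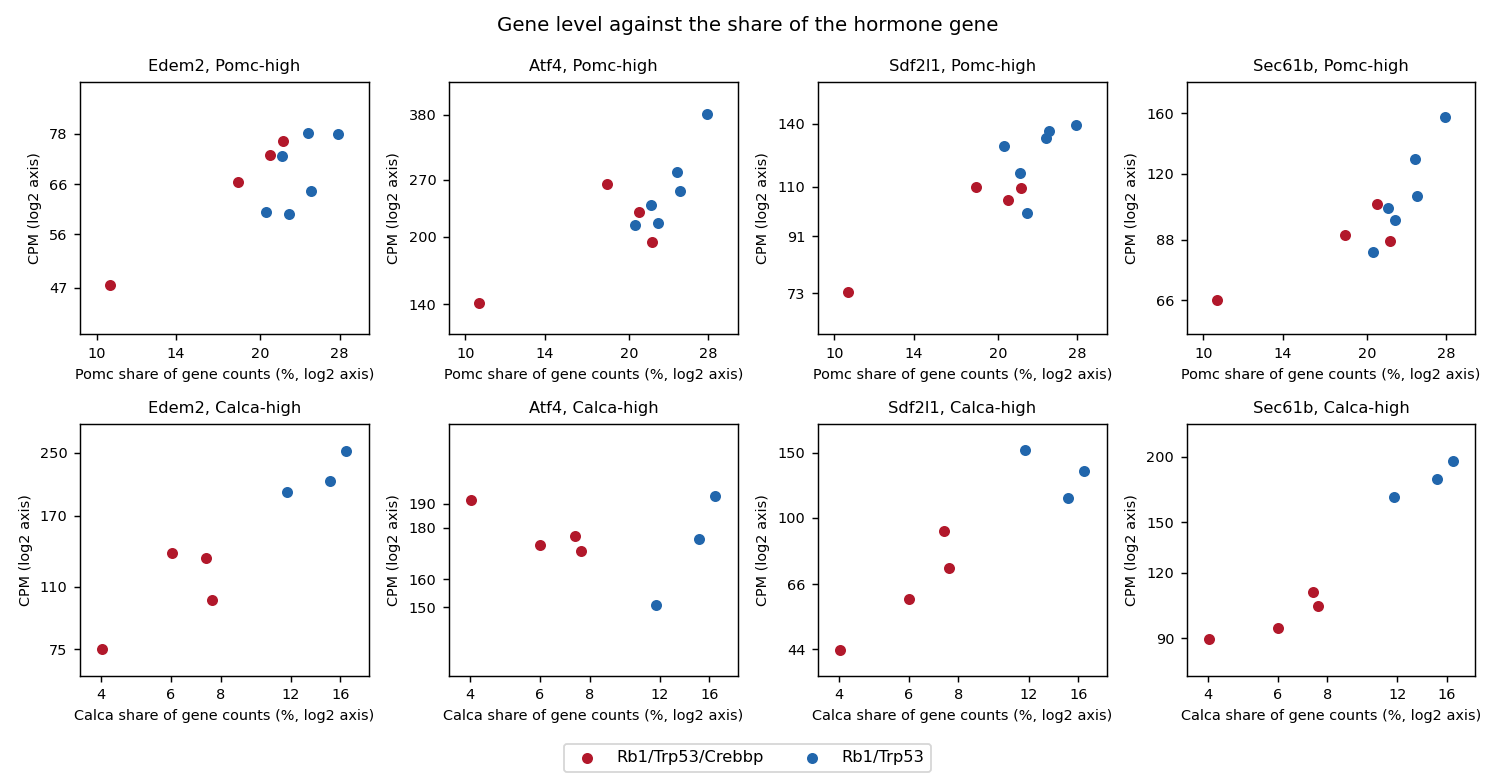
Points are libraries, with the share of Pomc (upper row, Pomc-high) or Calca (lower row, Calca-high) in the gene counts on the x axis and CPM of Edem2, Atf4, Sdf2l1 and Sec61b on the y axis, both on log2 axes, red for Rb1/Trp53/Crebbp and blue for Rb1/Trp53. In the upper row the library at 10.6% lies low for all 4 genes, and in the lower row the 2 genotypes occupy separate ranges of the share.

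Between the sets, the genotype-adjusted difference of Pomc-high over Calca-high passed for 17 of 33 members, 8 higher and 9 lower (51.5%), against 59.7% of 14338 genes (29.3% higher, 30.4% lower, edgeR). The members' share was thus no higher than that of all genes, and their values are given as a description. Of the PERK arm, 3 genes were higher in Pomc-high tumours: Ppp1r15a at 61.4 ± 17.5 CPM (SD, n = 10) against 33.05 ± 4.77 CPM in Calca-high ones (SD, n = 7), Ddit3 at 52.5 ± 10.2 against 31.1 ± 6.16 CPM, and Atf4 at 241 ± 63.2 against 176 ± 14.2 CPM. Their log2 differences were 0.79 ± 0.14, 0.78 ± 0.14 and 0.41 ± 0.14. The arm did not move as a whole. Trib3 (0.77 ± 0.47), the PERK gene Eif2ak3 (0.17 ± 0.12) and Atf3 (-0.15 ± 0.41) did not pass, and the feedback gene Dnajc3 was lower. Herpud1 (log2 0.74 ± 0.10), Dnajb9 (0.52 ± 0.08), Hyou1 (0.33 ± 0.09), Creld2 (0.29 ± 0.12) and Derl1 (0.12 ± 0.05) were higher too. Lower in Pomc-high tumours were the mannosidase-like ERAD genes Edem2, at 67.6 ± 9.85 against 157 ± 63.7 CPM, and Edem1, at 39.5 ± 8.50 against 81.0 ± 16.1 CPM. Pdia4 (-0.74 ± 0.15), Ssr1 (-0.56 ± 0.10), Sec61b (-0.45 ± 0.13), Manf (-0.35 ± 0.11), Dnajc3 (-0.33 ± 0.11), Sel1l (-0.27 ± 0.10) and Xbp1 (-0.17 ± 0.07) were lower as well. Of the 17 fits without a single library, the call was lost for Xbp1 in 14, Sel1l in 10, Derl1 in 8, Creld2 in 7 and Dnajc3 in 2. Hspa5 (0.05 ± 0.10), Calr (0.03 ± 0.16) and Canx (-0.06 ± 0.11) stood at about the same level in both.

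By promoter element, the 11 members with an ERSE or ERSE-II had log2 genotype differences from -2.02 (Derl3) to -0.16 (Canx) in the Calca-high set, all 11 negative, 3 of them past the threshold (Derl3, Creld2 and Pdia6). In the Pomc-high set they ran from -0.42 (Herpud1) to 0.11 (Canx), with 8 of 11 negative and 1 past the threshold (Syvn1). The 16 members with a window and neither these elements nor CARE had medians of -0.47 in the Calca-high and -0.25 in the Pomc-high set, beside -0.38 and -0.14 for the 11. In the Calca-high set 11 of these 16 were negative, with 8 called lower and 1 higher. In the Pomc-high set 15 of the 16 were negative, with 5 called lower and 0 higher. Over all genes tested, 17.1% were called lower in the Calca-high and 5.26% in the Pomc-high set. Atf3 and Trib3, with CARE and no ERSE, had 0.56 and 1.65 in the Calca-high and -0.78 and -1.14 in the Pomc-high set. Trib3 passed the threshold in both sets and Atf3 in neither. The difference between promoter classes was not tested.

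**Figure D5:**
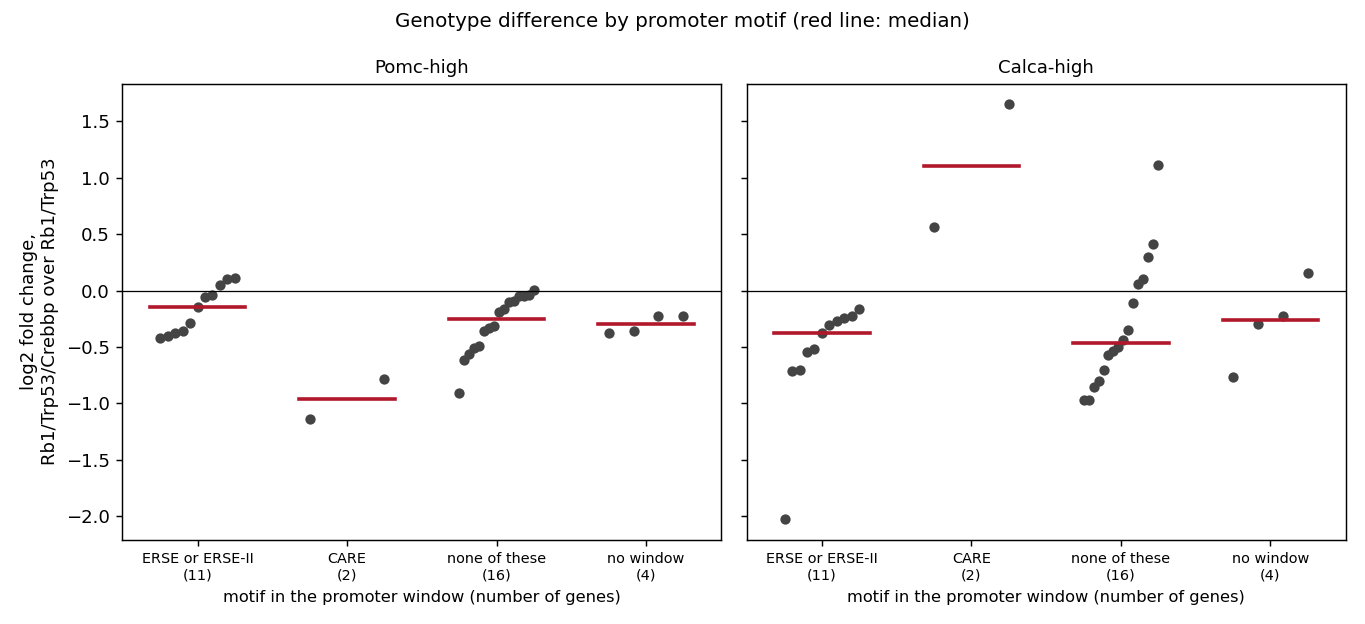
Each point is the log2 fold change of 1 member, Rb1/Trp53/Crebbp over Rb1/Trp53, in the Pomc-high (left) and Calca-high (right) sets, by the motif found in its promoter window, with a red line at the median and the number of genes in brackets. The 11 genes with ERSE or ERSE-II all lie below 0 on the right, as do 11 of the 16 marked none of these. The 2 with CARE alone lie below 0 on the left and above 0 on the right.

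Beyond the 33, 106 further genes of the secretory pathway and of ATF4 signalling were listed, of which 105 passed the filter. In the Pomc-high set 10 were lower and 0 higher in Rb1/Trp53/Crebbp, with a median log2 fold change of -0.15 over the 105 (edgeR). Over all genes tested 5.26% were lower and 3.15% higher. The smallest adjusted p-values belonged to the prolyl isomerase gene Fkbp14 (-0.66 ± 0.08), the disulfide oxidase gene Ero1l (-0.56 ± 0.09), the thiol-retention gene Erp44 (-0.42 ± 0.10) and the COPII coat gene Sec31a (-0.41 ± 0.09). In the Calca-high set 41 were lower and 15 higher, with a median of -0.23, against 17.1% lower and 19.1% higher of all genes. Fkbp2 had 75.8 to 109 CPM in Rb1/Trp53/Crebbp and 239 to 276 CPM in Rb1/Trp53 (-1.42 ± 0.13), and Fkbp11 fell by 1.71 ± 0.22 and the oligosaccharyltransferase gene Dad1 by 0.85 ± 0.10 on the log2 scale. Genes of translocation and glycosylation were lower in 13 of 22 and higher in 0, and other folding genes lower in 12 of 20 and higher in 1.

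Of 18 ATF4 targets outside the 33, 6 were higher and 2 lower (Nupr1 and Slc3a2) in Rb1/Trp53/Crebbp in the Calca-high set. Of all genes tested there, 19.1% were higher and 17.1% lower. Vldlr, the very-low-density lipoprotein receptor, had 25.9 to 41.4 CPM in Rb1/Trp53/Crebbp and 6.79 to 10.6 CPM in Rb1/Trp53 (2.03 ± 0.23, edgeR adjusted p = 0.00129). Chac1, which degrades glutathione, had a log2 fold change of 1.36 ± 0.32, the serine synthesis genes Psat1 and Phgdh 0.91 ± 0.17 and 0.74 ± 0.20, the cystine transporter gene Slc7a11 0.80 ± 0.26 and the tRNA synthetase gene Aars 0.58 ± 0.16. In the Pomc-high set 1 of the 18 passed, Nupr1 (-2.57 ± 0.61, edgeR adjusted p = 0.0328), against 8.42% of all genes. The interaction passed as negative for 6 of the 18 and as positive for 0, against 13.9% and 10.9% of all genes. Among the 6 were Vldlr, Chac1, Phgdh and Aars, with interactions of -2.35 ± 0.24, -1.81 ± 0.49, -1.29 ± 0.43 and -0.67 ± 0.19.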

How the data were processed

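The authors deposited raw counts of reads per gene symbol, 1 table per tumour. Per the labels' protocols, TRIzol RNA went through oligo-dT selection and a NEBNext Ultra library kit, and per the submitters' processing notes bcl2fastq 1.8.2, TopHat2 2.0.12, HTSeq 0.6.1 and build mm9 were used. The annotation was not given in the sources used here, nor was the strand setting, so overlapping and antisense genes cannot be told apart. Genes held 64.5% to 78.3% of each table and the 5 summary rows the rest, which was left out. Reads that did not align uniquely (8.20% to 18.5%) count for no gene, which can lower genes with near-identical copies.

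Counts were tested in edgeR 4.0.16 (R 4.3.3) with filterByExpr by genotype, TMM and its robust quasi-likelihood test, with Benjamini-Hochberg adjustment over all genes tested and a threshold of 0.05. SE was taken as |log2 fold change| over the square root of F. All 33 members passed the filter in every fit. The fits were genotype within each hormone set, genotype with the set as a term, the interaction, the sets themselves, and the log2 hormone share with genotype as a covariate. Shares were compared with an exact permutation test over libraries (scipy 1.17.1, Python 3.11.15), and figures were drawn with matplotlib 3.10.9. The scripts were checked on simulated counts. Of 30 pairs of libraries within a group, none agreed within sampling noise (chi-square per degree of freedom at least 8.30, genes with 10 or more reads in the pair).

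Every member is accounted for. Values per library are given for members past the threshold for genotype within a set or for the interaction, and for Hspa5, Xbp1, Atf4, Ddit3, Atf6, Ern1 and Eif2ak3. Of the other listed genes of the pathway, the 4 with the smallest adjusted p per comparison are named, and the ATF4 targets past the threshold in the Calca-high set were named after their values were seen. The members, lists and tests were chosen with earlier results of these data known. Other settings were DESeq2 size factors, no filter, DESeq2 1.42.0, limma-voom (limma 3.58.1), Pomc and Calca left out of the tables, the tumour number as a block and each library left out. The hormone share and marker sums as covariates were added after the data had been seen.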

Additional observations from a re-analysis of the deposited data

Results flagged for a closer look

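Of 99 groups of 4 or 6 libraries in which a stray library was looked for, 5 had 1 that stood apart, about as many as chance gives (1 in 20). In Pomc-high Rb1/Trp53/Crebbp T8, Ppp1r15a (34.6 CPM) and Sdf2l1 (73.4 CPM) lay far below the other 3 libraries. In Calca-high Rb1/Trp53/Crebbp, Dnajb9 was lowest in T3 (58.9 CPM) and Sel1l in T1 (108 CPM). Calr was lowest in Pomc-high Rb1/Trp53 T6 (982 CPM).

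For 10 members the genotype difference in Pomc-high minus that in Calca-high libraries passed the interaction test: Ern1 (-2.03), Eif2ak3 (-0.67), Trib3 (-2.79), Ssr1 (-0.46), Pdia3 (0.80), Pdia6 (0.64), Sel1l (0.48), Edem2 (0.92), Derl2 (0.41) and Derl3 (1.64), all on the log2 scale. That is 30.3% of the 33, near the 24.7% of all genes. As positive passed 18.2% of the members and 10.9% of all genes, and as negative 12.1% and 13.9%.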

How the results depend on the processing

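DESeq2 size factors, no filter, limma-voom and leaving out Pomc and Calca kept the 7 Pomc-high and 15 Calca-high calls by genotype. DESeq2 called 10 and 19, and 5 in place of 1 for the Pomc share. The tumour number as a replicate block, with 0 members in the Pomc-high set, 2 with the set as a term, 2 for the interaction (Ern1 and Trib3), 0 between sets and 0 for the Pomc share, called fewer; in the Calca-high set it called 10. The labels do not tie equal numbers together. Correlations of deviations between libraries with the same number ran from -0.144 to 0.216 over 4 Pomc-high and from -0.162 to 0.123 over 3 Calca-high pairs. In the Pomc-high T5 pair (0.216) and the Calca-high T1 pair (0.123) the equal number correlated best, and in the other pairs another number did. Most pairs thus did not deviate together, and whether the block describes a pairing is not known. The hormone share as a covariate left 1 Pomc-high and 0 Calca-high calls, the endothelial sum left 0 and the thyroid follicular sum 2 in the Calca-high set. For these covariate fits the counts are not set beside the share of all genes called. Without single libraries the counts ran from 3 to 9 (Pomc-high), 12 to 20 (Calca-high), 14 to 17 (set as a term), 7 to 11 (interaction), 14 to 18 (between sets), 0 to 1 (Pomc share) and 0 to 0 (Calca share), and the log2 difference of the Pomc share from -0.57 to -0.21, with an exact permutation p above 0.05 in 7 of the 10.

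The sign turned for members that had not passed. In the Pomc-high set, Ddit3 ran from -0.18 to 0.0017 (without Rb1/Trp53 T8) without single libraries, and with the hormone share as a covariate Ddit3 was 0.17 and Atf4 0.045. In the Calca-high set, Atf4 ran from -0.032 (without Rb1/Trp53 T1) to 0.15 and Eif2ak3 from -0.011 (without Rb1/Trp53 T4) to 0.23. There the hormone share gave -0.037 for Ddit3, -0.26 for Atf6 and -0.14 for Eif2ak3, the endothelial sum 0.048 for Hspa5 and -0.062 for Atf4, and the thyroid follicular sum 0.060 for Hspa5 and -0.067 for Atf4. The cause was not tested.

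With 3 or 4 libraries a side the precision is limited, Atf3 and Trib3 had the largest SE in both sets, and genotype cannot be separated from hormone share in the Calca-high libraries. Genotype also cannot be separated from the endothelial sum in either set, or from the total on genes in the Calca-high set.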
